A study of Homo sapiens with 9 samples.

Results

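The genes described here encode the G1 machinery of the cell cycle: the D-type cyclins CCND1 and CCND3, the E-type cyclins CCNE1 and CCNE2, the kinases CDK2, CDK4 and CDK6, and the inhibitors CDKN1B, CDKN2C and CDKN2D. The 10 genes were listed by name as members of this machinery, with earlier results of these data known, and their values were read from probe sets annotated to exactly 1 of these symbols. Of the 10 genes, 9 had such a probe set (22 probe sets in all), out of 19775 genes on the array, and the level of CDKN2C was not analysed here. Each gene was represented by its brightest probe set over the 9 arrays. Of these 9 genes, 8 were bright enough to enter the tests, which covered 11865 genes. CDK6 (mean 6.18) entered only through 2 arrays on which it was high, since its mean over the other 7 was 5.70. CDKN2D fell below the filter (mean 5.68 against a level of 5.92 on the log2 scale) and is given by its values only.

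D-type cyclins bind CDK4 and CDK6 when growth signals are present, and the resulting kinases begin to phosphorylate the retinoblastoma protein. This frees E2F transcription factors, which raise E-type cyclins and other S phase genes, and cyclin E with CDK2 completes the step. CDKN1B (p27) restrains CDK2 complexes, and CDKN2C (p18) and CDKN2D (p19) bind CDK4 and CDK6 directly. In androgen-dependent prostate cancer cells, removal of androgen is known to arrest growth in G1, and its return allows entry into S phase.

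The cells were LNCaP, an established human prostate cancer line that carries an androgen receptor and depends on androgen for growth. Each of 9 groups had 1 array, so no group had a replicate of its own. In the inhibitor series, all untransfected, 1 group grew in 10% fetal bovine serum (steady state). The other 4 groups spent 48 h in 5% charcoal-stripped serum, which holds little steroid. Of these, the vehicle group had no added agent, the DHT group had 100 nM dihydrotestosterone for 16 h, and 2 groups had 100 µM etoposide or 100 µM merbarone for 2 h before the same DHT treatment. Etoposide holds topoisomerase II on broken DNA, whereas merbarone blocks the enzyme's catalysis. The shRNA series held 4 groups of cells transfected with a GFP vector carrying sh-control or sh-TOP2B, deprived of androgen, given vehicle or 100 nM DHT for 16 h, and collected by sorting for GFP. TOP2B encodes topoisomerase II beta, the gene the study lowered. All groups but steady state were thus androgen-deprived first, and every shRNA array came from transfected and sorted cells.

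Values are RMA values on the log2 scale, so a difference of 1 is a doubling. Each array has its own median (5.61 to 5.72). Levels under it are called dim, and where 1 of the levels compared is dim it is raised to that median, so that the difference becomes a lower bound. A gene passes the test at a limma adjusted p under 0.05 over all 11865 genes. Except in 2 tests that compare DHT responses, the spread behind each test is how far the DHT differences of the 3 vehicle and DHT pairs depart from each other, and each lone array is assumed to vary likewise.

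The arrays of the 2 series stood apart. Arrays of 1 series correlated at 0.951 to 0.995 over all probe sets, and arrays of different series at 0.880 to 0.916. The difference between the beta-actin control probe sets at the 3' and 5' ends of the transcript, a sign of RNA quality, was 0.38 to 0.70 in the inhibitor series and 2.38 to 3.09 in the shRNA series. TOP2B was at 10.54 and 10.87 on the sh-control arrays and at 10.09 and 10.01 on the sh-TOP2B arrays (vehicle and DHT), a difference of -0.66 that did not pass (limma adjusted p = 0.0934). Of 8 luminal prostate markers 7 were measured, and 6 of them were above the array median on all arrays. KLK3 was dim with merbarone alone. Of 3 basal markers 2 were measured, of which KRT14 was dim on all arrays and KRT5 on 8. Of 5 stromal markers COL1A2, DCN and LUM were dim on all arrays, whereas COL1A1 (8.05 to 9.63) and VIM (6.77 to 8.46) were above the median on all. Of 2 measured leukocyte markers PTPRC was dim on all arrays and CD3E on 4 (5.00 to 6.27 over the 9).

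Upstream sequence was read for 7 of the 10 genes, in 12 windows of 250 bases that end at an annotated transcription start (RefSeq, GRCh38.p14). They were searched on both strands for E2F-type letters (TTCCCGC or else TTCGCGC or else TTGCCGC or else TTGGCGC, held by 10.9% of all 35116 such windows), for the E-box CACGTG bound by MYC and related factors (6.34% of windows) and for the androgen receptor half-site AGAACA (12.4% of windows). CDK4 held CACGTG 3 times, at 216, 196 and 101 bases before its start, a count of at least 3 that was met by 0.0797% of windows. CDKN2C held E2F-type letters at 131 and 34 bases before the start in 1 of its 3 windows, and CACGTG in both others. The windows of CCND3, CCNE1, CDK6, CDKN1B and CDKN2D held none of the 3 motifs. CDK4 changed with serum and differed between the inhibitors, and CDK6 had the most uneven response to DHT. For this reason the CDK4 window and the first of the 2 CDK6 windows are shown. Both are on the minus strand, at chr12:57752311-57752560 and chr7:92836574-92836823, read 5′ to 3′, with CACGTG in capitals.
CDK4: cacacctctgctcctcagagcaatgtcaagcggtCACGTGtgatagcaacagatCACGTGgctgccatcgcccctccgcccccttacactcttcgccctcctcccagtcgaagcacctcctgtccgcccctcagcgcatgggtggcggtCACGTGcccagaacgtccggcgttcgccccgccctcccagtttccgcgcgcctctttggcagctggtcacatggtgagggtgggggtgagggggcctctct
CDK6: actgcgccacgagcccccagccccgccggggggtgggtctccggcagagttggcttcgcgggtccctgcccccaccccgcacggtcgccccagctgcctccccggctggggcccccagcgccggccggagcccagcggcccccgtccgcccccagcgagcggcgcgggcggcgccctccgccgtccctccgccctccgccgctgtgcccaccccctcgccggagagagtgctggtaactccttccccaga
A match is a description of these letters and was not tested for binding.

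**Figure D1:**
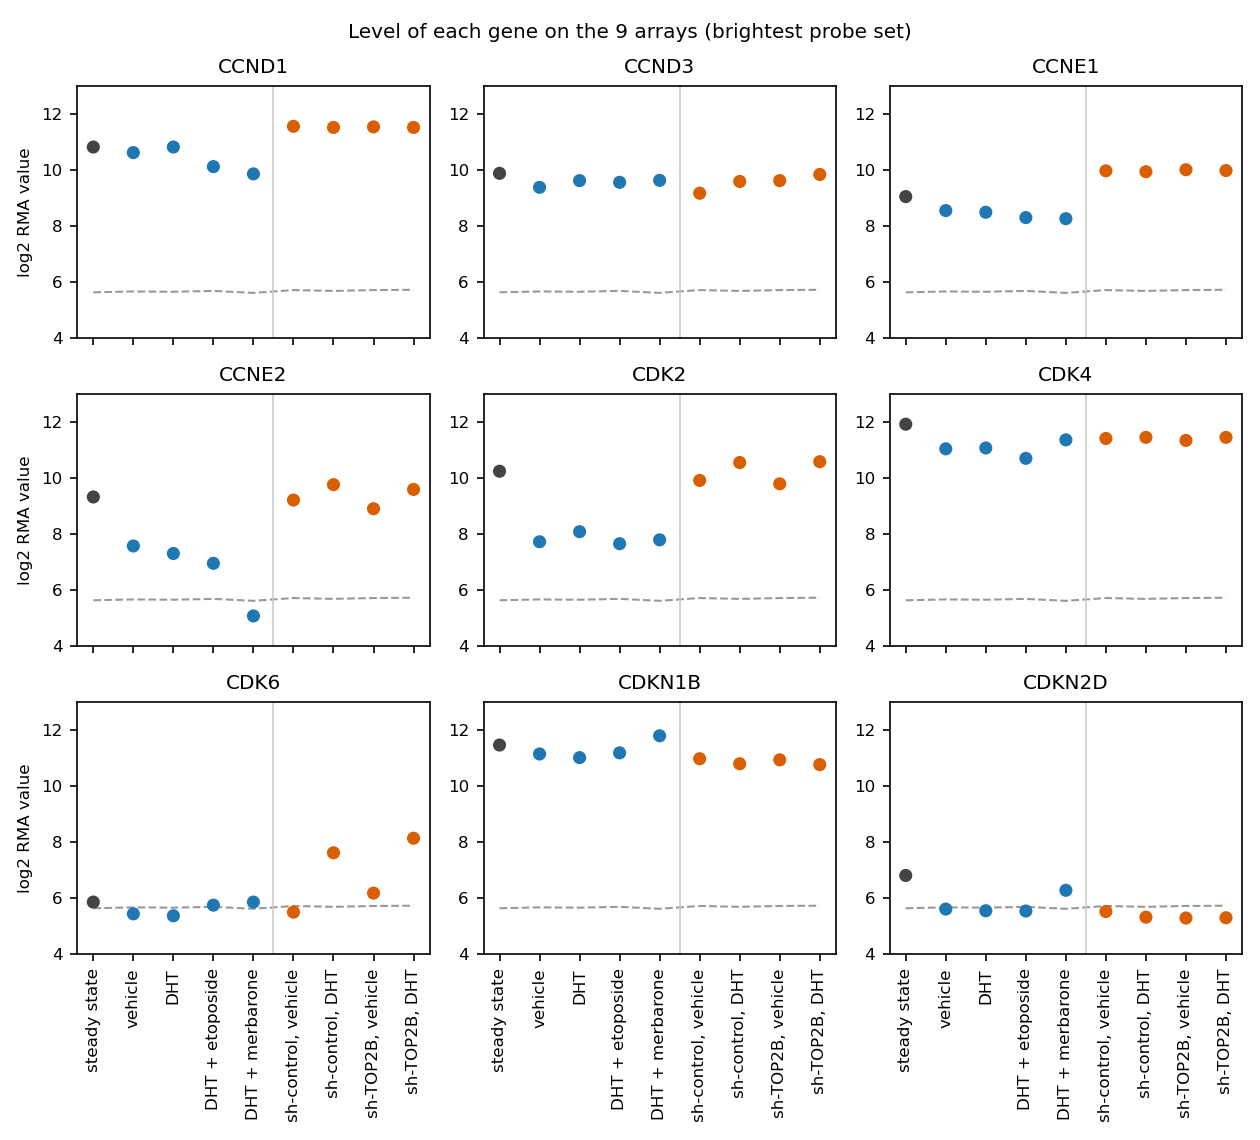
Log2 RMA level (vertical axis) of the brightest probe set of each of the 9 measured genes on the 9 arrays, 1 point per array, with the steady-state array in grey, other inhibitor-series arrays in blue, shRNA-series arrays in orange and the array median as a dashed line. CDK2 is at 10.24 in steady state against 7.65 to 8.08 on the other inhibitor-series arrays, CCNE2 is lowest with merbarone (5.07), and CDK6 is high on both sorted DHT arrays (7.61 and 8.13); levels of different genes come from different probes and are not comparable.

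The comparison of steady state with vehicle asks how the G1 genes of cells in full serum differed from those of cells without androgen. CDK2 and CCNE2, the kinase and a cyclin of the step into S phase, were several-fold higher in serum, CDK4 was less than doubled, and CCND1 did not pass by its brightest probe set. CDK2 was at 10.24 in steady state against 7.72 with vehicle, and on the arrays with DHT, DHT plus etoposide and DHT plus merbarone it was at 8.08, 7.65 and 7.79. Its value in serum was thus above all 4 deprived untransfected arrays, and the rise over vehicle was 5.71-fold, or 2.51 ± 0.20 (log2, SE; adjusted p = 0.000334). CCNE2 was at 9.32 in steady state and 7.57 with vehicle, a rise of 1.75 ± 0.33, or 3.37-fold (adjusted p = 0.0101). The partner kinase of the D-type cyclins, CDK4, was at 11.92 and 11.04, a rise of 0.87 ± 0.10 (adjusted p = 0.00164). CCND3, a D-type cyclin, was at 9.88 and 9.38 and passed narrowly (0.51 ± 0.15, adjusted p = 0.0493). Under 7 of 10 alternatives it did not pass, with adjusted p between 0.0628 and 0.423, among them the fits without the sh-control pair (0.0760) and without the sh-TOP2B pair (0.124). Whether fewer cycling cells or less RNA per cell lowered a value cannot be told apart in these bulk samples.

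CCNE1 was at 9.05 in steady state and 8.55 with vehicle and just missed the threshold (0.50 ± 0.15, adjusted p = 0.0512). CCND1, the cyclin most directly driven by growth signals, was at 10.82 and 10.62 (0.20, adjusted p = 0.329). The inhibitor gene CDKN1B was at 11.46 and 11.14 (0.32, adjusted p = 0.0625), so its transcript was not shown to differ. CDK6 was at 5.85 and, dim with vehicle, at 5.43. CDKN2D, not tested, was at 6.80 in steady state and dim with vehicle (5.60), a difference of at least 1.14. Its second probe set was dim on both arrays (5.33 and 5.12) and gives no difference. In all, 4 of 8 members rose and 0 fell, against 28.1% of all genes called (15.7% higher and 12.4% lower), and the members' median was 0.50 against 0.04 over all genes tested.

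The second probe sets differed from the brightest here. The second CDK2 probe set was at 9.09 and 7.36, a rise of 1.73 ± 0.30 (adjusted p = 0.0071). That of CCNE2 was at 7.03 and 6.88 and did not pass (0.15, adjusted p = 0.858), so the CCNE2 rise rests on 1 of its 2 probe sets. That of CCND1 was at 9.67 and 9.0 and passed (0.67 ± 0.18, adjusted p = 0.0343).

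Set against deprived cells given DHT, the serum-grown cells still had higher CDK2 (2.16 ± 0.20, adjusted p = 0.000684), CCNE2 (2.02 ± 0.33, adjusted p = 0.00683) and CDK4 (0.85 ± 0.10, adjusted p = 0.00216). CCNE1 (0.56, adjusted p = 0.0398) and CDKN1B (0.45, adjusted p = 0.0231) passed as well, and 0 members fell, with 24.8% of all genes called (13.5% higher and 11.4% lower). Without the sh-control pair CCNE1 and CDKN1B did not pass (adjusted p = 0.0876 and 0.0544), nor without the sh-TOP2B pair (0.118 and 0.0841). CCND1 was at 10.82 on both arrays by its brightest probe set, and its second was 0.68 higher in steady state (limma adjusted p = 0.0346). The second CCNE2 probe set did not pass (0.94, limma adjusted p = 0.151), and that of CDK2 did (1.56, limma adjusted p = 0.0121). This comparison shares the steady-state array with the one before. The E2F targets again had 8 of 9 called as higher, led by TK1 (3.36) and MCM5 (3.07). Of the relatives of the members described next, 3 rose, led by CDKN3 (3.94) and CCNA2 (3.85), and CDKN2B, dim in steady state, was at least 1.22 lower. Of 17 activation and turnover genes 6 rose, led by CDC25C (at least 2.70, dim with DHT) and SKP2 (2.31), and of 12 pocket protein and E2F genes 3 rose, led by E2F7 (at least 1.97) and RBL1 (at least 1.01), both dim with DHT.

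The genes around the G1 kinases were read from 4 lists, chosen with earlier results of these data known. Of 9 measured E2F targets of S phase entry, 8 rose in steady state over vehicle and 0 fell, with a median of 1.99 against 0.04 over all genes. TK1, thymidine kinase, rose by 4.02 and MCM5, a subunit of the replicative helicase, by 3.40. Of 17 genes of CDK activation and of p27 or cyclin turnover, 6 rose and 1 fell. CDC25C and SKP2 led the rises: CDC25C, a phosphatase that activates CDKs and was dim with vehicle, was at least 2.70 higher, and SKP2, which marks p27 for destruction, rose by 2.68. SKP1 fell by 0.29. Of 12 pocket protein and E2F genes 3 rose and 0 fell, with E2F7, a repressor E2F that was dim with vehicle, at least 1.96 higher and RBL1 (p107), also dim with vehicle, at least 1.00 higher. Among 7 tested relatives of the members 3 rose and 3 fell. CDKN3 rose by 4.55 and the S phase cyclin gene CCNA2, dim with vehicle, by at least 4.16. CDKN2B (p15), dim in steady state, was at least 1.75 lower, and CDKN1A (p21) fell by 0.91. The cycling-cell markers MKI67, TOP2A, CCNB1 and PCNA all passed as higher in steady state (4 of 4). Their mean level as deposited, with no dim level raised, was 10.80 there against 7.30 with vehicle, where MKI67 and TOP2A were dim. The part of these markers in the members' differences was not tested.

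**Figure D2:**
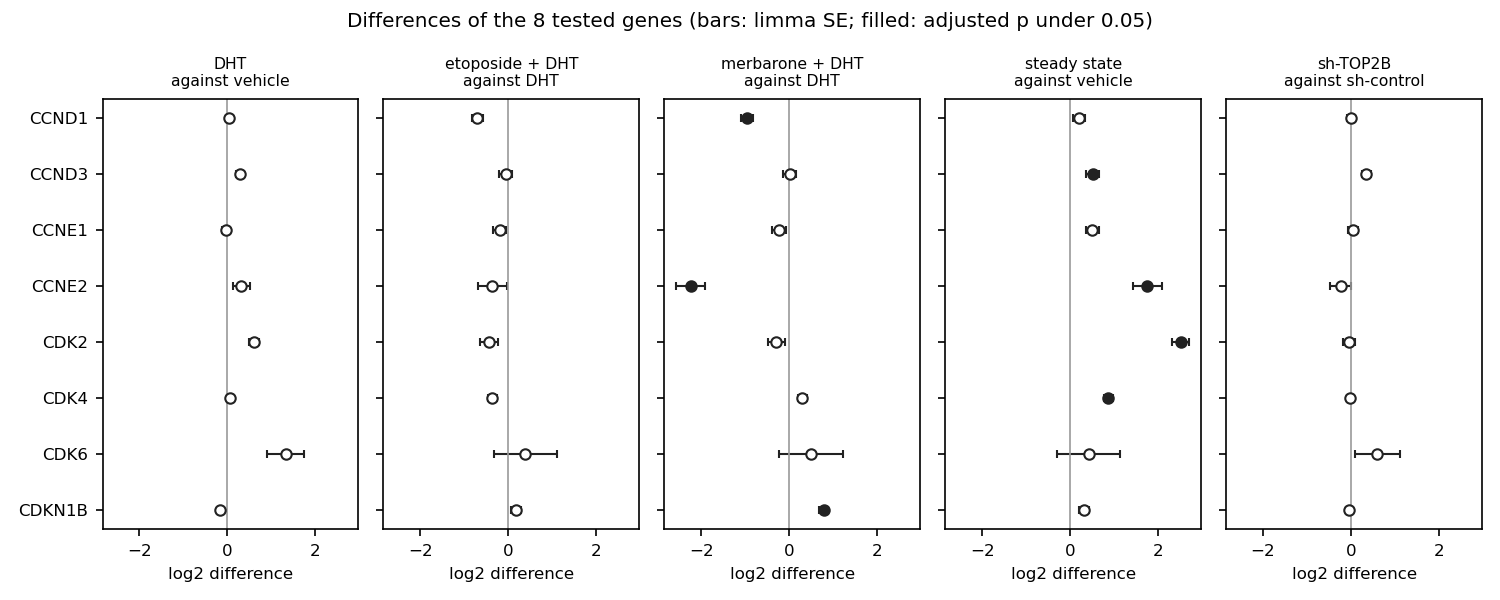
Log2 difference (horizontal axis) of the 8 tested genes in 5 comparisons, with bars for the limma SE and filled points for an adjusted p under 0.05. Steady state has filled points to the right for CCND3, CCNE2, CDK2 and CDK4, merbarone has CCND1 and CCNE2 to the left and CDKN1B to the right, and the other 3 panels have none; the deposited CCNE2 difference with merbarone (-2.24) rests on a dim level.

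The comparison of DHT with vehicle asks whether androgen alone restored the G1 genes in deprived cells. Over the 3 pairs limma called 0 of 8 members, against 0.447% of all genes called. At an unadjusted p under 0.05 there were 4 members, against 19.3% of all genes. The members' median was 0.17 against -0.02 over all genes. CDK2 came nearest. It was at 7.72 with vehicle and 8.08 with DHT in untransfected cells, at 9.91 and 10.55 in sh-control cells and at 9.79 and 10.58 in sh-TOP2B cells, so it was higher with DHT in 3 of 3 pairs. Its mean difference was 0.60 ± 0.11 (adjusted p = 0.0855), and its second probe set gave 0.55 (adjusted p = 0.176). With arrays centred on ribosomal protein genes it passed (0.61, adjusted p = 0.0494). The mean deposited level of the cycling-cell markers, with no dim level raised, was also higher on each DHT array than on its vehicle array. It was at 7.67 against 7.30, 9.60 against 9.35 and 9.63 against 9.25. Of the 4 markers 0 passed the test with DHT, and they moved unequally. In untransfected cells MKI67, dim with vehicle, differed by 0.90, CCNB1 by 0.47 and PCNA by 0.02, and TOP2A was dim on both arrays. In sh-control cells MKI67 differed by 0.56, PCNA by 0.28, TOP2A by 0.08 and CCNB1 by 0.05. The part of these markers was not tested.

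CCND3 was likewise higher in 3 of 3 pairs, by 0.24, 0.42 and 0.22 (mean 0.29 ± 0.09, adjusted p = 0.163). CDKN1B was lower in 3 of 3, by values of -0.13, -0.18 and -0.17 (mean -0.16 ± 0.06, adjusted p = 0.228). CCND1 (0.04), CCNE1 (-0.04) and CDK4 (0.06) had mean differences within their SE of 0.06 to 0.09. The brightest CCND1 probe set thus differed by no more than 0.20 in any pair, and the second by -0.02, -0.30 and -0.10. CCNE2 went different ways: it was at 7.57 with vehicle and 7.30 with DHT in untransfected cells, at 9.21 and 9.76 in sh-control cells, and at 8.90 and 9.59 in sh-TOP2B cells. Its mean difference was 0.32 ± 0.19 by the brightest probe set and -0.18 ± 0.24 by the second, and neither passed.

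CDK6 had the largest mean difference of the members (1.33 ± 0.42, adjusted p = 0.175) and did not pass, and its pairs differed widely. In untransfected cells it was dim on both arrays (5.43 with vehicle and 5.36 with DHT). In sh-control cells it was dim with vehicle (5.49) and at 7.61 with DHT, a rise of at least 1.90. In sh-TOP2B cells it was at 6.17 and 8.13, a rise of 1.96, or 3.89-fold. Both sorted DHT arrays therefore lay above the other 7 arrays, which ranged from 5.36 to 6.17. With dim levels raised, a difference of at least 1 upward in both shRNA pairs was seen in 1.21% of all genes tested.

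The difference between the DHT responses of the shRNA and the inhibitor series was tested in a fit chosen after these values were seen, whose spread is how far the responses of the 2 shRNA pairs differ. It was 2.11 ± 0.41 for CDK6 (limma adjusted p = 0.0196) and 1.93 once each dim level was set to its array's median. Because CDK6 passed the filter only through the 2 sorted DHT arrays, this p is conditioned on the difference it tests, and the value is given as a description. With no filter the adjusted p was 0.0645, which does not pass. limma called 2.98% of all genes in this comparison and, of the 8 members, CDK6. CCNE2 was at 0.88 ± 0.23 (adjusted p = 0.0687), and under a stricter filter, which left CDK6 out, it passed (adjusted p = 0.0139). Without the intensity trend the adjusted p of CDK6 was 0.228. Without the inhibitor pair, the spread is only how far the 2 shRNA pairs differ from each other. In that fit 2627 of all 11865 genes were called for DHT, 44.3% of them higher. Of the members, the DHT difference passed for CDK6 (2.04, limma adjusted p = 4.95e-06, under the same condition), CDK2 (0.72, adjusted p = 5.75e-05), CCNE2 (0.62, adjusted p = 0.000936) and CCND3 (0.32, adjusted p = 0.0430). The second CCNE2 probe set differed by -0.05 in sh-control and 0.29 in sh-TOP2B cells. That of CDK2, dim with vehicle in both, was at least 0.34 and 0.32 higher. Going from vehicle to DHT, the 3' minus 5' value of beta-actin went from 3.09 to 2.67 in sh-control cells, from 2.69 to 2.38 in sh-TOP2B cells and from 0.47 to 0.46 in untransfected cells; its part in the CDK6 difference was not tested. Transfection, sorting and series cannot be told apart.

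Most CDK6 probe sets were dim, so their differences are bounds. With dim levels raised, 1 of the 7, the brightest, was higher with DHT by at least 1 in both shRNA pairs, as were 0.837% of all 41097 probe sets with 1 symbol. 243000_at, dim with vehicle in both, was at 6.85 with DHT in sh-control cells (at least 1.14 higher) and at 6.42 in sh-TOP2B cells (at least 0.71 higher). 224851_at was dim on all arrays and gives no difference, although its deposited values lay at 5.65 and 5.57 on the sorted DHT arrays against 3.56 to 4.31 on the others. The remaining 4 were dim on all arrays.

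**Figure D3:**
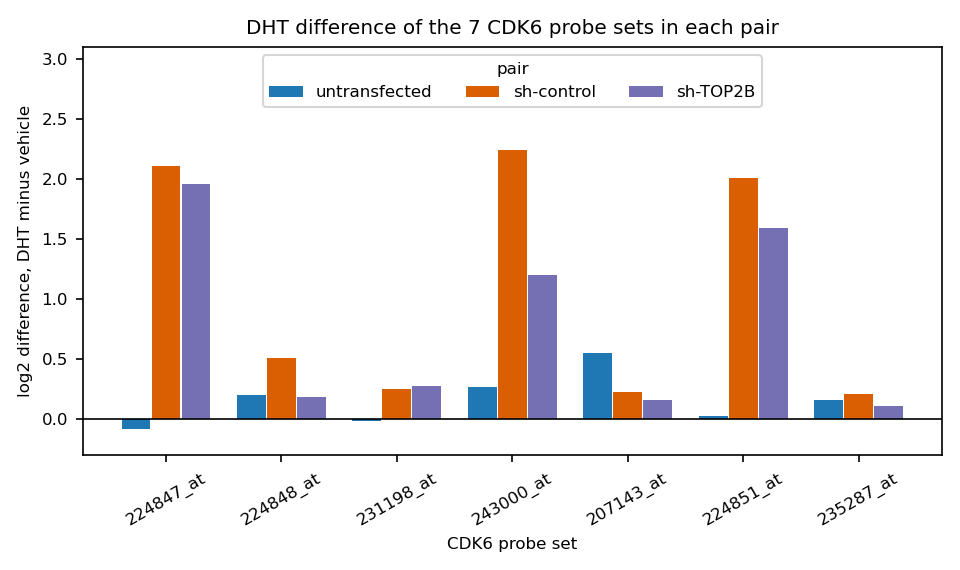
DHT minus vehicle (log2, vertical axis) for each of the 7 CDK6 probe sets, ordered by mean level, with 1 bar per pair, as deposited and with no dim level raised. The probe sets 224847_at, 243000_at and 224851_at have bars of 1.20 to 2.24 in sh-control and sh-TOP2B cells and of at most 0.27 in untransfected cells, and the other 4 stay at or below 0.55 in all pairs. Apart from 224847_at in sh-TOP2B cells, every bar rests on at least 1 dim level.

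In the lists around the members, DHT raised 1 gene past the test: CDC25A, the phosphatase that activates CDK2, which was higher in 3 of 3 pairs, by 1.04, 1.16 and 1.11 (mean 1.10 ± 0.12, limma adjusted p = 0.0232). It was at 5.68 with vehicle and 6.73 with DHT in untransfected cells, and at 8.27 in steady state. limma called 0 of 9 E2F targets (5 at an unadjusted p under 0.05, median 0.40), 0 of 12 pocket protein and E2F genes (6, median 0.01) and 0 of 7 relatives (4, median 0.17). Of all genes, 19.3% were at an unadjusted p under 0.05. E2F1, an activating E2F, was at 7.37 and 7.46 in untransfected, 7.92 and 8.94 in sh-control and 7.90 and 8.93 in sh-TOP2B cells (vehicle and DHT), and did not pass. E2F1 is named here outside the rule, having been chosen after its values were seen. In the difference between series FBXW7, which marks cyclin E for destruction, was the 1 gene of the 4 lists to pass (0.82, adjusted p = 0.0413).

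The inhibitor comparisons ask how poisoning or blocking topoisomerase II altered the G1 genes of cells given DHT. With etoposide limma called 0 of 8 members, against 1.05% of all genes. At an unadjusted p under 0.05 there were 2 members, against 14.6% of all genes. CCND1 had the largest negative value, at 10.82 with DHT and 10.12 with etoposide (-0.70 ± 0.13, adjusted p = 0.0707), and its second probe set was at 8.98 and 8.93. CDK4 was at 11.07 and 10.70 (-0.36 ± 0.10, adjusted p = 0.186). CDK2 was at -0.44, CCNE2 at -0.36, CCNE1 at -0.19 and CCND3 at -0.06, while CDKN1B was at 0.17, all with adjusted p of at least 0.38. CDK6 was at 5.74 and, dim with DHT alone, at 5.36. CDKN2D was dim on both arrays (5.53 and 5.54). Of the cycling-cell markers CCNB1 fell by 1.68, PCNA rose by 1.17, and TOP2A was called while dim on both arrays. Their mean level as deposited was 6.89 with etoposide against 7.67 with DHT alone. It includes the dim TOP2A values (2.45 and 4.50), and the part of these markers was not tested.

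Merbarone changed 3 members past the test, with 31.7% of all genes called (15.4% higher and 16.3% lower), and the members' median was -0.11 against 0.00 over all genes. CCNE2 was at 7.30 with DHT and became dim with merbarone (5.07), a fall of at least 1.69, or 3.23-fold (adjusted p = 0.00394 on the deposited difference). An absolute difference as large as the deposited one was found in 1.67% of genes. Its second probe set, at 6.09 with DHT and 4.50 with merbarone, was dim with merbarone too, a fall of at least 0.48. It passed on the deposited difference (limma adjusted p = 0.0277). CDKN1B, the p27 inhibitor gene, was at 11.01 and 11.79, a rise of 0.78 ± 0.11, or 1.71-fold (adjusted p = 0.00273), and its merbarone array was the highest of all 9.

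The 2 probe sets of CCND1 moved in opposite directions with merbarone. The brightest, 208712_at, was at 10.82 with DHT and 9.86 with merbarone and fell by 0.96 ± 0.13 (adjusted p = 0.0028). The other, 208711_s_at, was at 8.98 and 10.17 and rose by 1.18 ± 0.18 (adjusted p = 0.00413). Both were far above the array median, and with the median of both the difference was 0.11 (adjusted p = 0.671). A direction for the CCND1 transcript as a whole can therefore not be given. CDK4 was at 11.07 with DHT and 11.36 with merbarone (0.30, adjusted p = 0.0711). CDK2 (-0.29), CCNE1 (-0.23) and CCND3 (0.01) did not pass. CDK6 was at 5.85 with merbarone and dim with DHT (5.36), at least 0.20 apart, and did not pass. CDKN2D, not tested, was dim with DHT (5.54) and at 6.27 with merbarone, a difference of at least 0.61. Its second probe set was dim on both arrays (4.84 and 5.33) and gives no difference.

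Among the relatives, CDKN1A rose with both inhibitors, by 1.77 with etoposide (adjusted p = 0.0153) and 1.97 with merbarone (adjusted p = 0.000848). It was the 1 relative of 7 called with etoposide, and with merbarone 3 of 7 rose and 2 fell. CDKN2A rose by 1.37 with merbarone, CDK1 fell by 0.80, and CCNA2, dim with merbarone, was at least 0.35 lower. Of the 17 activation and turnover genes 7 rose and 3 fell with merbarone. FBXW7 rose by 2.23 and WEE1, the kinase that holds CDKs inactive, by 1.60, while CKS2 fell by 1.36 and SKP2 by 0.85, and CDC25C was called while dim on both arrays. As deposited, with TOP2A dim on both arrays, the cycling-cell markers had a mean level of 7.30 with merbarone against 7.67 with DHT alone. Of them CCNB1 fell by 0.81 and PCNA rose by 0.69 past the test. The part of these markers was not tested. With etoposide 0 of the 17 were called (6 at an unadjusted p under 0.05, as were 14.6% of all genes). Of 12 pocket protein and E2F genes merbarone raised TFDP2 (1.35) and E2F7, which was dim on both arrays and is given no size, and lowered TFDP1 (-0.73), both TFDP genes encoding E2F partners. Of 9 E2F targets 2 rose, SLBP by 1.34 and MCM2 by 0.87.

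Etoposide and merbarone were compared directly at the same dose and time, for 1 pair of compounds with adjustment over all genes, of which 32.6% were called (13.5% higher and 19.1% lower with etoposide). Of the 8 members 3 passed. CCNE2 was at 6.95 with etoposide and dim with merbarone (5.07), at least 1.33 higher with etoposide (adjusted p = 0.00739), and its second probe set, dim on both arrays, did not pass (adjusted p = 0.114). CDK4 was at 10.70 and 11.36, lower with etoposide (-0.66 ± 0.10, adjusted p = 0.00476). CDKN1B was at 11.18 and 11.79, also lower with etoposide (-0.61 ± 0.11, adjusted p = 0.00674), but not with arrays centred on ribosomal protein genes (-0.38, adjusted p = 0.0594). For the others the 95% interval of the difference ran from -0.05 to 0.57 for CCND1, -0.43 to 0.30 for CCND3, -0.33 to 0.40 for CCNE1, -0.62 to 0.32 for CDK2 and -1.84 to 1.62 for CDK6. The CCND1 interval is that of its brightest probe set. The other was at 8.93 with etoposide and 10.17 with merbarone (-1.23 ± 0.18, adjusted p = 0.00374), the opposite direction. In the lists, WEE1 (-1.88) and AMBRA1 (-1.12) led 7 activation and turnover genes that were lower with etoposide, against 2 that were higher, CKS2 (0.56) and CDC25C, which was dim on both arrays. TFDP2 (-1.77), MCM2 (-1.63), SLBP (-1.40) and CDKN2A (-1.38) were lower with etoposide as well, as was E2F5 (-0.86), while CCNA2, dim with merbarone, was at least 0.72 higher, CDK1 was 0.46 higher and TK1 was 0.63 higher.

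**Figure D4:**
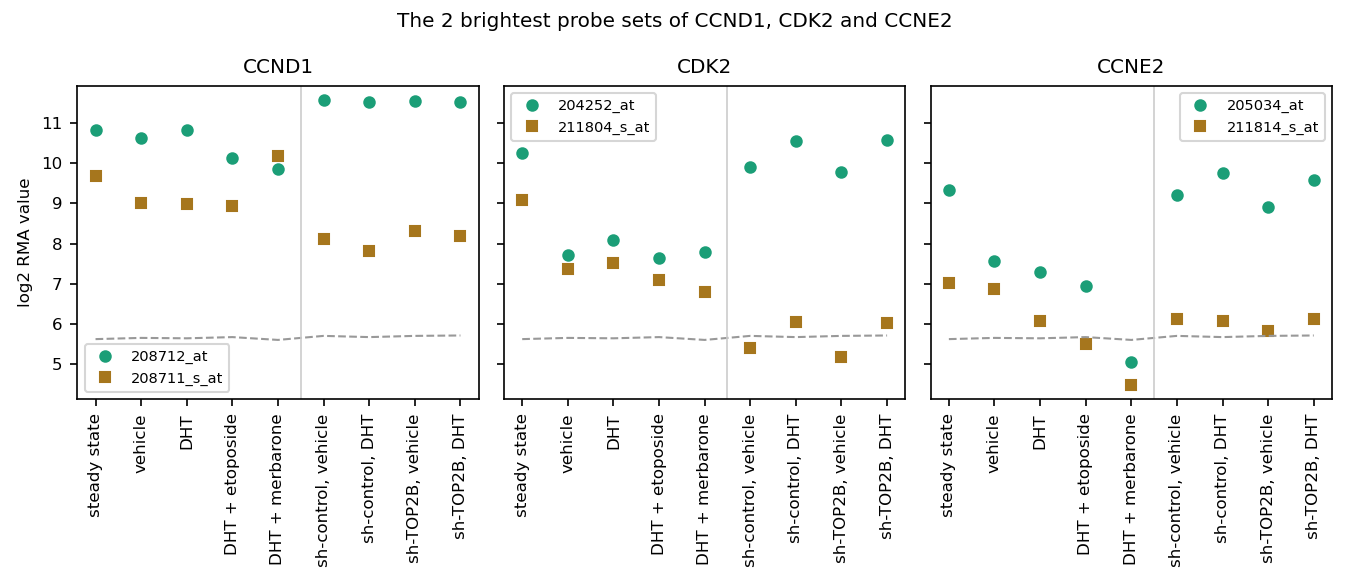
Log2 RMA level (vertical axis) on the 9 arrays of the 2 brightest probe sets of CCND1, CDK2 and CCNE2 (circles for the brightest, squares for the next), with the array median as a dashed line. With merbarone the CCND1 circle falls to 9.86 and the square rises to 10.17, and on the 4 shRNA-series arrays the CDK2 circles lie at 9.79 to 10.58 while the squares lie at 5.19 to 6.05.

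Lowering TOP2B changed no member past the test. limma called 0 of 8 between sh-TOP2B and sh-control cells, against 1.05% of all genes. At an unadjusted p under 0.05 there was 1 member, against 7.01% of all genes. CCND3 had the lowest p: it was at 9.17 and 9.59 in sh-control cells and at 9.62 and 9.84 in sh-TOP2B cells (vehicle and DHT), 0.35 ± 0.11 higher (adjusted p = 0.493). CDK6 was at 0.60 ± 0.51, CCNE2 at -0.24 ± 0.24, and the other 5 between -0.04 and 0.04. Of the 4 lists 1 gene passed, CDKN2B, at 7.83 and 8.07 in sh-control and 9.48 and 9.56 in sh-TOP2B cells (1.57 ± 0.21, adjusted p = 0.0226). The DHT response in sh-TOP2B cells differed from that of the other backgrounds past the test for 0 of 8 members and 0 of all genes, with a spread taken from how far the other 2 pairs differ (limma, 0 members and 205 genes at an unadjusted p under 0.05). The largest value was 0.94 ± 0.84, for CDK6. As deposited, its DHT difference was 1.96 in sh-TOP2B cells, 2.11 in sh-control cells and -0.08 in untransfected cells, where both levels were dim. The response in sh-TOP2B cells was thus above that of the untransfected pair only.

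Sorted sh-control cells and untransfected cells, both androgen-deprived, differed in 68.3% of all genes (41.7% higher and 26.6% lower in sh-control cells), and vector, transfection, sorting and series cannot be told apart in this comparison. By their brightest probe sets 5 of 8 members were higher in sh-control cells and 0 lower, with a median of 0.99 against 0.18 over all genes. CCNE1 was at 8.55 and 8.49 in untransfected cells (vehicle and DHT) and at 9.97 and 9.94 in sh-control cells, a difference of 1.44 ± 0.11 (adjusted p = 4.01e-05). CDK2 differed by 2.33 ± 0.14, CCNE2 by 2.05 ± 0.24, CCND1 by 0.82 ± 0.09 and CDK4 by 0.37 ± 0.07.

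The second probe sets of 3 of these genes did not follow. The second CDK2 probe set was lower in sh-control cells (-1.71 ± 0.21, adjusted p = 0.000409), at 7.36 and 7.53 in untransfected against 5.41 and 6.05 in sorted cells. That of CCND1 was lower as well (-1.02 ± 0.13, adjusted p = 0.000394), and that of CCNE2 did not pass (-0.37, adjusted p = 0.293). CDK4 did not pass after quantile normalization again (0.15) or centring on ribosomal protein genes (0.19), and CDKN1B (-0.20, adjusted p = 0.0515) passed as lower under both (-0.45 and -0.38). By its brightest probe set CDKN2D was dim on all 4 sorted arrays (5.28 to 5.51). Its second was above the array median in sh-control cells with DHT (5.80) and in sh-TOP2B cells with vehicle (5.90). CCND3 (-0.12) and CDK6 (1.16, limma adjusted p = 0.0839) did not pass. No direction between the series is therefore given for CDK2, CCND1 or CCNE2, and the 3' minus 5' control differences stated above moved with it; their part was not tested. Of 17 activation and turnover genes 15 were higher in sh-control cells, led by SKP2 (3.72) and CDC25A (2.73), and 2 were lower, SKP1 (-1.0) and CUL1 (-0.32). Of 12 pocket protein and E2F genes 9 were higher, led by E2F7 (at least 2.60) and RBL1 (at least 3.05), and E2F4 (-2.14) and E2F6 (-0.53) were lower. Of 9 E2F targets 6 were higher, led by CDC6 (at least 2.63) and ORC1 (at least 1.90), and SLBP was lower (-0.64). Of 7 relatives 5 were higher, led by CCNA2 (at least 4.94) and CDKN3 (3.57), and CDKN2A (-1.63) and CDKN1A (-0.66) were lower. Second probe sets of these genes were not compared, and bounds stand where an untransfected level was dim. As deposited, with no dim level raised, the cycling-cell list had a mean level of 9.35 and 9.60 on the sh-control arrays. On the untransfected arrays it was at 7.30 and 7.67. Of these 4 markers 3 passed as higher in sh-control cells: TOP2A (at least 3.36), CCNB1 (2.38) and PCNA (0.64). MKI67, dim with vehicle in untransfected cells, did not pass (0.38 as deposited, limma adjusted p = 0.137). The part of these markers was not tested.

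The genes whose pattern was most like that of a member were sought over the 9 arrays, after each series was centred on its own mean, for the 4 members of largest range, as a description without a test. For CDK2 (range 2.94) they were ZNF367 (r = 0.992), MCM8 (r = 0.991) and NCAPH (r = 0.991). MCM8, a relative of the replicative helicase subunits, was at 9.10 in steady state and 6.18 with vehicle. For CDK6 (range 2.78) they were KLF5 (r = 0.957), FZD5 (r = 0.956) and GOLGA4-AS1 (r = 0.948). KLF5, a transcription factor of epithelial cells, was higher with DHT by 0.25 in untransfected, 2.00 in sh-control and 1.94 in sh-TOP2B cells, and FZD5, a Wnt receptor, by 0.57, 2.13 and 1.91. For CCNE2 (range 4.69) they were PRRC1 (r = 0.989), BAG3 (r = 0.986) and PLEKHH1 (r = 0.985), and PLEKHH1 was at 10.45 in steady state and 6.76 with merbarone. For CCNE1 (range 1.75) they were SHQ1 (r = 0.997), PRDX3 (r = 0.985) and PSMB5 (r = 0.983). All these correlations share the same 9 arrays.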

How the data were processed

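Per the labels, total RNA was extracted, biotin-labelled and hybridised to Affymetrix arrays, 1 for each of 9 groups. The authors deposited log2 values for 54675 probe sets, made with RMA, per the submitters' processing notes. The version, and whether anything was done afterwards, is not given in the sources used here. This method brings arrays processed together to nearly the same distribution, which hides a shift of most genes together. The 2 series did not fully share 1 distribution, since quantile normalization again changed the share of higher calls between them. The median difference of sh-control from untransfected cells was 0.18 over all genes tested. No value was missing, at most 6.39% of values were equal on any 2 arrays, and 0 columns were unmapped.

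Probe sets were named from the platform's annotation: 41097 had 1 gene symbol, 1801 several and 11777 none in it. The brightest probe set stood for each of 19775 genes, and genes below the 40th percentile of mean level were left out. limma 3.58.1 in R 4.3.3 was fitted with a term for each background (untransfected, sh-control, sh-TOP2B), 1 for DHT and 1 for each lone array, which left 2 residual degrees of freedom, to which the empirical Bayes step with an intensity trend added 4.62. Lone arrays were subtracted directly from their reference array. Tests were two-sided with Benjamini-Hochberg adjustment, and the method was tested on simulated data. No label says that arrays came from separate cultures, so p-values measure the spread between these arrays. Sequences came from RefSeq.

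The members and lists were chosen with earlier results of these data known. All members and, per list and comparison, up to 2 leading rises and 2 leading falls past the test are named. Where a gene falls outside this rule, the text says so. The level of CDKN2C was not analysed here. The number of arrays limits the precision.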

Additional observations from a re-analysis of the deposited data

Results flagged for a closer look

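In the deposited values the CDK6 difference with DHT was larger by 2.11 (log2) in the transfected and sorted cells than in untransfected cells. The test of that difference was chosen after the values were seen, and its spread is only how far the 2 shRNA pairs differ. CDK6 entered the test only through the 2 sorted DHT arrays on which it was high, so its limma adjusted p of 0.0196 is conditioned on this difference. With no filter the adjusted p was 0.0645, and without the intensity trend CDK6 did not pass either. The value is therefore given as a description. The untransfected levels were dim on both arrays, and the cause was not tested.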

How the results depend on the processing

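With 1 array per group, every value rests on few arrays and on a spread borrowed from the DHT pairs. The alternatives were another probe set or the median over probe sets, no or a stricter filter (60th percentile), no intensity trend, quantile normalization again, centring on 57 ribosomal protein genes, leaving out each background, no replicate block, and a fitted reference level; the next probe set and the comparison of DHT responses between series were chosen after seeing the data. Etoposide (0), sh-TOP2B (0) and merbarone (3, range 2 to 3) kept their counts of called members within 1.5 times. For DHT the count was 0, 0 without the replicate block that holds the paired arrays together, 1 with ribosomal centring, and 0 to 4 when a pair was left out. Steady state against vehicle gave 4 members, and 2 with the median over probe sets. Steady state against DHT gave 5, and 3 without the trend, with ribosomal centring or without either shRNA pair. The difference of DHT responses between series gave 1 member, and 0 with the median over probe sets, no filter or no trend. Among values that passed the test in the setting reported or in the alternative, those that took the other sign with the median over probe sets were CCND1 with merbarone (0.11), between the inhibitors (-0.49) and between the series (-0.10), and CDK2 between the series (-1.71). With the next probe set they were CCND1 with merbarone (1.18), between the inhibitors (-1.23) and between the series (-1.02), and CCNE2 (-0.37) and CDK2 (-1.71) between the series. CCND1 in steady state against DHT was at 0 in the setting reported, with no sign to change, and at 0.68 with the next probe set. The cause was not tested. Another 26 member values that passed under neither setting also changed sign, the largest in size being 0.32, CDK6 with etoposide against the fitted level (0.39 to -0.32). Over all genes, 53 were called for DHT, 35 with the median over probe sets, 5 without the trend, 20 without the filter, 208 with ribosomal centring, 0 without the block and 1 to 2627 with a pair left out. For etoposide 124 were called, 0 without the trend, 56 without and 192 with a stricter filter, 73 after quantile normalization, 232 against the fitted level and 0 to 29 with a pair left out. For sh-TOP2B 124 were called, 81 without the trend and 315 without the inhibitor pair. For steady state against DHT 2946 were called, and 1918 without the sh-TOP2B pair. For the difference between series 353 were called, 0 without the trend, 148 without and 607 with a stricter filter. The ribosomal protein genes had a median level of 13.86 in steady state, 13.72 with vehicle, 13.66 with DHT, 13.60 with etoposide and 13.83 with merbarone, and centring shifts all genes by these differences. It moved the share of higher calls over all genes from 48.5% to 32.9% for merbarone, from 41.4% to 65.9% for etoposide against merbarone, from 55.7% to 39.2% and 54.2% to 31.4% for steady state against vehicle and DHT, from 94.3% to 79.8% for DHT and from 61.0% to 50.9% between the series, where quantile normalization again gave 45.2%.

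A leave-one-out fit could not be run where a comparison needs the background left out.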
